A study of Mus musculus with 6 samples.

Results

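The nuclear genes that encode subunits of respiratory complexes II, III and IV, of cytochrome c and of ATP synthase (complex V) were examined in heart ventricle RNA. Members were the protein-coding genes whose symbol in the GENCODE M21 annotation begins with *Uqcr*, *Cox4* to *Cox8* or *Atp5*, together with *Sdha* to *Sdhd*, *Cyc1* and *Cycs*. This gave 50 of the 54232 gene identifiers in each count file, with 4 in complex II, 9 in complex III, 1 for cytochrome c, 18 in complex IV and 18 in complex V. They carry 49 symbols, because *Atp5o* has a second identifier. The hearts came from wild-type C57BL/6J mice, all of them fed western diet (WD), which is rich in fat and sucrose. After 15 weeks on the diet, 3 mice were given Tributyrin, a triglyceride of butyrate, by gavage at 5 g/kg body weight over 3 weeks, and 3 were given vehicle, which the sample labels call PBS. No lean or untreated group was sequenced with them, and the sources used here do not give the age of these 6 mice. The comparison asked how the transcripts differed between WD + Tributyrin and WD + Vehicle.

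Complex II oxidizes succinate and passes the electrons to ubiquinone, complex III passes them on to cytochrome c, and complex IV transfers them to oxygen. Complexes III and IV pump protons across the inner mitochondrial membrane, and complex V uses the returning protons to make ATP. Heart muscle relies on this pathway for nearly all of its ATP, and for several subunits of complex IV it uses isoforms known from heart and skeletal muscle. Complex II is built from nuclear genes alone, while III, IV and V also need subunits encoded in mitochondrial DNA.

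Libraries held between 20369746 and 32734485 reads counted on genes, and the members together took between 3.26% and 3.58% of them. All 10 ventricular cardiomyocyte markers examined passed the low-count filter, with a summed level between 59690 and 60610 CPM in the vehicle hearts and between 57190 and 62150 CPM in the Tributyrin hearts. CPM are reads scaled to a common library size, here with TMM factors, which correct for differences in library composition. Of these 10, 4 had an unadjusted p under 0.05 in edgeR. *Tnnt2*, *Tnni3* and *Pln* were higher with Tributyrin (log2 fold change 0.23, 0.21 and 0.24), with replicate 2 the lowest of the Tributyrin hearts in each, and *Actc1* was lower (−0.21). Across all 10, 6 had a fold change above 0. Replicate 2 was also the lowest Tributyrin heart for *Myl2*, *Myl3* and *Tnnc1*, and replicate 1 for *Actc1* and *Mybpc3*. For *Myh6* (16990, 21690 and 17670 CPM) and *Ryr2* (1856, 2336 and 1721 CPM) replicate 2 was the highest Tributyrin heart. Atrial markers (*Myl7*, *Myl4*, *Sln*, *Mybphl* and *Nppa*) summed to 182 and 172 CPM in vehicle replicates 1 and 2, and to between 31.04 and 64.4 CPM in the other 4 hearts. In vehicle replicate 3 *Nppa* made up 39.8 of 53.8 CPM. All 5 were lower with Tributyrin, and 4 had an unadjusted p under 0.05 in edgeR. These were *Myl7*, *Myl4*, *Sln* and *Mybphl* (log2 fold change −1.94, −1.86, −2.24 and −2.17). The 6 fibroblast markers summed to between 743 and 799 CPM with vehicle and to 670, 808 and 698 CPM with Tributyrin, and 2 of them had an unadjusted p under 0.05, *Col1a1* (log2 fold change −0.46) and *Lum* (−0.31). *Col1a1* stood at 76.7, 96.1 and 95.3 CPM with vehicle and at 53.2, 86.8 and 54.3 CPM with Tributyrin. The 6 smooth muscle and pericyte markers summed to between 717 and 770 CPM with vehicle and to 739, 839 and 874 CPM with Tributyrin, with *Myh11* higher (log2 fold change 0.59, unadjusted p = 0.00535 in edgeR). Of 6 macrophage markers 1 had an unadjusted p under 0.05, and of 6 endothelial and 5 erythroid markers 0. The part of these cell types in the member values was not tested. Every heart had 1571 to 2559 reads of the Y-linked *Ddx3y* and 0 to 6 of *Xist*. Transcripts of mitochondrial DNA took 26.5%, 23.6% and 24.1% of the counts in the vehicle hearts and 27.7%, 25.9% and 28.8% in the Tributyrin hearts. In bulk tissue, fewer cells of a type and less RNA per cell cannot be told apart.

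The members were among the most abundant transcripts of the ventricle. Levels between genes were compared per length, as CPM per kb of the principal transcript, the transcript that the annotation marks as the main coding form. On this scale 30 of the 47 members that passed the low-count filter were among the 100 highest of the 14133 genes tested, and 43 were among the highest 1000. *Atp5b*, which encodes the catalytic beta subunit of ATP synthase, was the highest member at 2936, followed by *Atp5a1* (alpha subunit) at 1912 and *Atp5g3* (c subunit) at 1907. The means of the last 2 differed by less than the spread between hearts, as did those of *Cox6a2* at 1802 and *Cox4i1* at 1761, the highest members of complex IV. In complex III the range was narrow, from 1362 for *Uqcrq* to 421 for *Uqcrc2*. In complex II *Sdhb* was highest at 683 and *Sdhc* lowest at 192. *Cycs*, the single gene for somatic cytochrome c, stood at 78.5 over its long transcript of 3123 bases. These orders depended on the length used. Per kb of all annotated exons the highest member was *Cox6a2* at 1802, followed by *Atp5a1* at 1507 and *Atp5b* at 1328. On that scale *Sdha* (440) led complex II. In complex III *Uqcrfs1* (693) was highest and *Uqcrq* stood at 301.

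**Figure D1:**
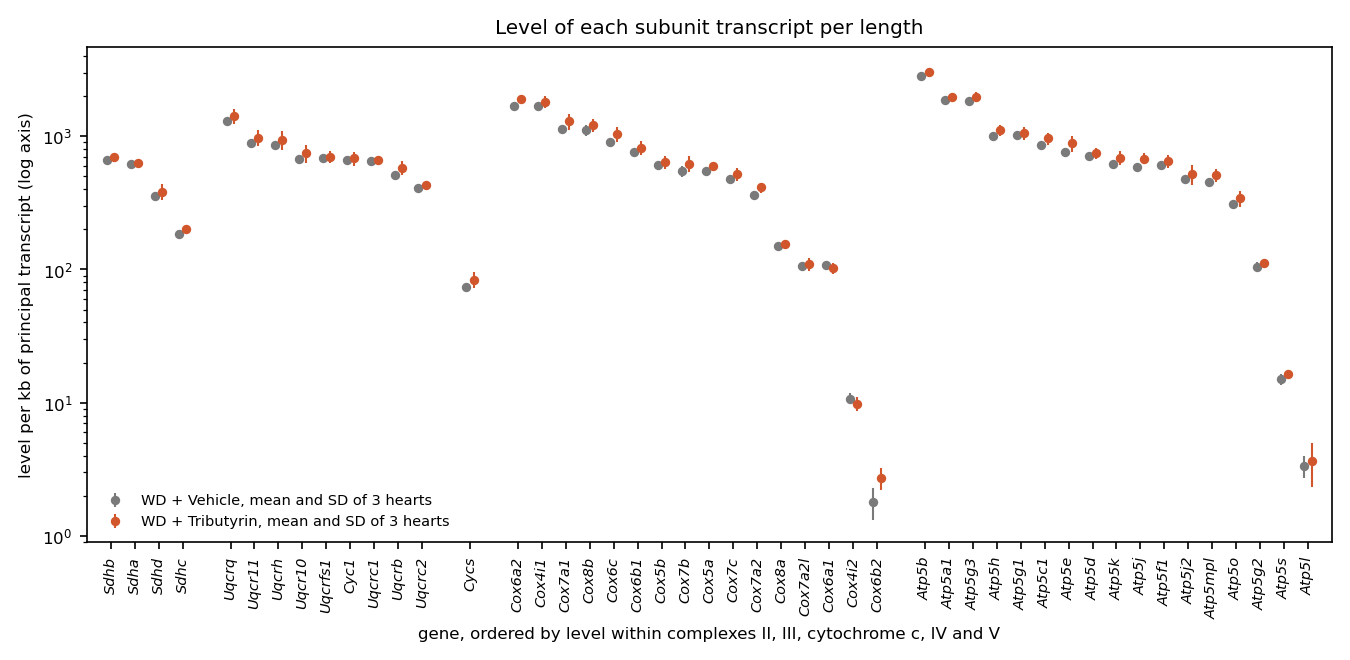
Level of each of the 47 tested members per kb of principal transcript (log axis), ordered within complexes II, III, cytochrome c, IV and V, with the mean and SD of 3 hearts per group (grey, WD + Vehicle; orange, WD + Tributyrin). The range runs from 2936 for *Atp5b* to 2.26 for *Cox6b2*, and the lowest members are *Cox4i2*, *Cox6b2*, *Atp5s* and *Atp5l*.

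A few members were scarce. *Cox6b2*, *Cox7b2* and *Cox8c* encode isoforms known from testis. *Cox6b2* stood at 2.26 CPM per kb, *Cox7b2* had between 0 and 5 reads per library and did not pass the filter, and *Cox8c* had 0 reads in every library, which allows up to between 0.0917 and 0.147 CPM (3 counts per library, counting error only). The second identifier of *Atp5o*, whose exons overlap *Donson* and the main *Atp5o* gene on the same strand, also had 0 reads and was not tested. *Atp5s* (factor B), which is loosely attached to the enzyme, was at 15.7 CPM per kb. *Atp5l*, the g subunit in the membrane part of ATP synthase, had only 38 to 78 reads per library, or 3.51 CPM per kb, against 500 for *Atp5j2* and 654 for *Atp5k*, which encode neighbouring subunits of the same enzyme.

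Sequence shared with other genes limits how these counts can be read, since reads were 50 bases long. Of the stretches of 50 bases in the principal *Atp5l* transcript, 68.5% also occur in transcripts of other genes, led by *Gm10221*, which had 86 reads over the 6 libraries. The share was 100% for *Atp5g2*, 66.0% for *Atp5g1*, 53.0% for *Cox7c*, 50.5% for *Atp5h*, 43.2% for *Uqcrb*, 35.5% for the main *Atp5o* gene and 28.2% for *Cycs*, and 0% for *Sdha*, *Sdhb*, *Sdhd*, *Cox4i1*, *Cox6a2*, *Cox7a1*, *Cox7a2* and *Atp5a1*. The treatment of reads with several matches is not stated, so the absolute levels of the first group are uncertain. Over all annotated transcripts of a gene the share was lower, at 7.6% for *Atp5l*, 38.3% for *Atp5g2*, 10.2% for *Atp5g1* and 22.1% for *Cox7c*. Some members overlap a gene on the opposite strand, among them *Atp5j* with *Gabpa* over 397 bases and *Cox4i1* with *Emc8* over 154 bases. The libraries were stranded but the strand setting of the counting is not stated, and *Gabpa* had between 1101 and 1652 reads per library.

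With Tributyrin the members lay slightly above vehicle as a group in replicates 1 and 3 but not in replicate 2, and no single member passed the test. The members were measured in the same 6 libraries, so their directions are not independent of each other. Of 47 tested members, 45 had a log2 fold change above 0, against 49.6% of all genes tested, and *Cox4i2* and *Cox6a1* had one below 0. The median was 0.12 (8.48% higher), beside −0.0013 over all genes tested. By complex the median log2 fold change was 0.08 in complex II, 0.13 in complex III, 0.12 in complex IV and 0.12 in complex V, and *Cycs* stood at 0.19. By the quasi-likelihood test of edgeR, adjusted over all genes after Benjamini and Hochberg, 0 members and 0.0% of all genes passed a false discovery rate (FDR) of 10%. The smallest adjusted p of a member in edgeR was 0.999. An unadjusted p under 0.05 was found for 3 members, all higher with Tributyrin, where 1.97% of all genes were higher and 2.28% lower at that level. These were *Cox6a2*, *Cox7a2* and *Atp5j*. With limma-voom 0 members passed 10% and 3 had an unadjusted p under 0.05, and with DESeq2 the counts were 0 and 4, while 0.0835% of the genes with an adjusted p passed 10% in DESeq2. Over all genes, 4.28% with limma-voom and 1.80% with DESeq2 had an unadjusted p under 0.05 in either direction. With library size as the only scaling, 36 members were above 0, against 27.5% of all genes, and the median of the members minus that of all genes was 0.12 under both scalings.

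**Figure D2:**
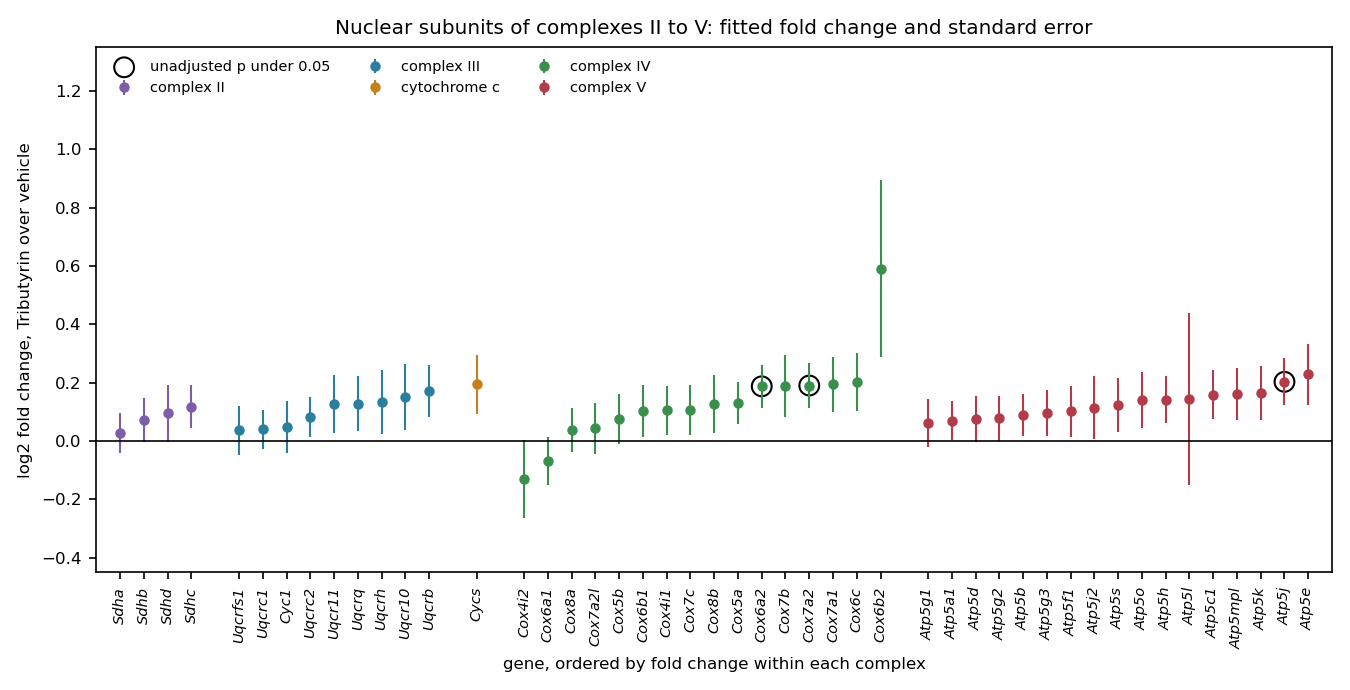
Fitted log2 fold change (Tributyrin over vehicle) of the 47 tested members with its standard error, ordered within each complex. All but *Cox4i2* and *Cox6a1* lie above 0, most between 0.03 and 0.23, and the 3 members with an unadjusted p under 0.05 are ringed.

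The 3 Tributyrin hearts did not behave alike. As the median over members of the log2 level minus the mean of the vehicle hearts, the vehicle hearts stood at 0.05, −0.03 and −0.02. The Tributyrin hearts stood at 0.13 in replicate 1, −0.05 in replicate 2 and 0.24 in replicate 3. Replicates 1 and 3 therefore lay above every vehicle heart and replicate 2 below every vehicle heart. The same order of the 3 hearts held in complex II (0.13, −0.02 and 0.18), where replicate 2 lay within the vehicle range, in complex III (0.13, −0.09 and 0.31), in complex IV (0.16, −0.05 and 0.25) and in complex V (0.13, −0.03 and 0.25). Gene by gene, 41 of 47 members were above every vehicle heart in Tributyrin replicate 1 and 43 in replicate 3, but only 3 in replicate 2, where 23 were below every vehicle heart. For all genes tested the share above every vehicle heart was 28.3%, 25.3% and 29.5% in replicates 1, 2 and 3, and the share below every vehicle heart was 25.4% in replicate 2. Tributyrin replicate 3 held the highest of the 6 values for 40 members, beside 21.9% of all genes, and replicate 2 the lowest for 22, beside 17.7% of all genes.

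The groups did not overlap for 2 of 47 members, *Cox6a2* and *Cox7a2*, with Tributyrin above, where 4.34% of all genes were separated in that direction and 4.61% in the other. The counts moved with single hearts. Without Tributyrin replicate 2, 31 of 47 members had an unadjusted p under 0.05 and a positive fold change, beside 4.71% of all genes, the median was 0.19 and the smallest adjusted p of a member was 0.345. Without Tributyrin replicate 3 there were 0 such members, beside 2.09% of all genes, the median was 0.05 and 38 members were above 0. The number was 1 without Tributyrin replicate 1, 3 without vehicle replicate 1, and 0 without vehicle replicate 2 or 3. In the same order, 3.74%, 4.90%, 2.82% and 2.68% of all genes were at that level in either direction. Between hearts of the same group the median SD of the members was 0.12 on the log2 scale, close to the median fold change, and the median was 0.15 over all genes tested and 0.09 over the 1302 genes with a mean of at least 100 CPM.

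**Figure D3:**
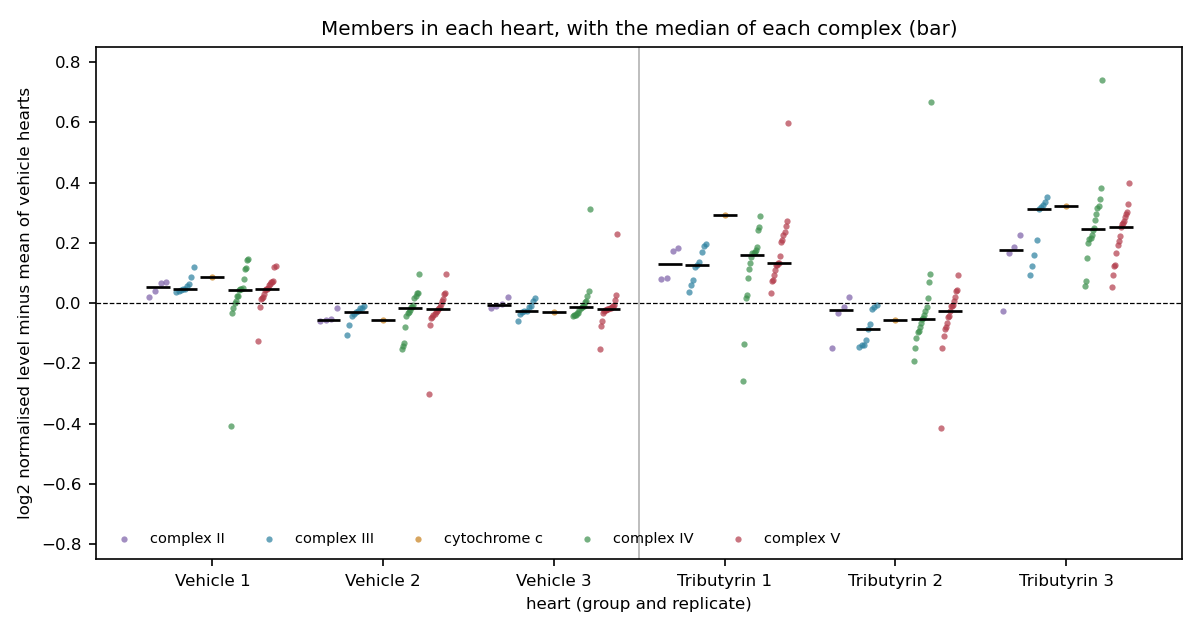
Log2 normalised level of each tested member minus the mean of the 3 vehicle hearts (vertical axis), for each of the 6 hearts, coloured by complex, with a bar at the median of each complex. Vehicle hearts lie near 0, Tributyrin replicates 1 and 3 above it and Tributyrin replicate 2 slightly below it in every complex.

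Short transcripts outside the list moved in the same order across hearts. Over the 395 other protein-coding genes tested with a principal transcript under 800 bases, the median deviation from the vehicle mean was 0.06, −0.06 and 0.20 in Tributyrin replicates 1, 2 and 3, and between −0.01 and 0.02 in the vehicle hearts. This length was chosen after the values were seen. Among the members, the log2 fold change had a median of 0.13 in the 26 with a principal transcript under 800 bases and of 0.09 in the 21 longer ones. Across all protein-coding genes tested the medians were 0.07 for the shorter class and −0.0047 for the longer class. Across the 47 members Spearman's rho between fold change and length was −0.43, and across 12915 protein-coding genes it was −0.23. These genes share the same 6 libraries, and the part of transcript length in the member values was not tested.

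Promoters of members were searched for the core motifs of factors known to act on respiratory genes. A RefSeq window (GRCm38.p6) from 250 bases before to 50 bases after the start was found for 35 of 49 symbols, in 38 windows. The NRF1 core CGCATGCG occurred in 21.1% of the member windows and in 1.87% of all 32851 windows of that length. The ERR core TCAAGGTCA occurred in 5.26% against 0.423%, the ETS (GABPA) core CCGGAAGT in 10.5% against 3.89% and the YY1 core AAGATGGC in 5.26% against 2.75%. Both strands were searched, and the NRF1 core reads the same on both. At least 1 of these motifs was found in 36.8% of member windows and 8.49% of all windows, and a match is a description of letters only. The 250 bases before the start are shown for *Cycs* (chr6:50566570-50566819, minus strand), with an NRF1 core, for *Atp5g3* (chr2:73911327-73911576, minus strand), with an ERR core on the opposite strand, and for *Uqcr11* (chr10:80406822-80407071, minus strand), with an ETS core. Capitals mark motifs that lie wholly before the start. An NRF1 core of *Uqcr11*, which begins 5 bases before the start and runs across it, is unmarked.
Cycs: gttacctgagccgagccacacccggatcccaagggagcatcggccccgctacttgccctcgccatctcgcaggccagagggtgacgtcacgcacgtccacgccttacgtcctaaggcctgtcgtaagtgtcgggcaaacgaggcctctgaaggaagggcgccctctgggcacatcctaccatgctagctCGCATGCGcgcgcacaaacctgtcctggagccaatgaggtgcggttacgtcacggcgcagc
Atp5g3: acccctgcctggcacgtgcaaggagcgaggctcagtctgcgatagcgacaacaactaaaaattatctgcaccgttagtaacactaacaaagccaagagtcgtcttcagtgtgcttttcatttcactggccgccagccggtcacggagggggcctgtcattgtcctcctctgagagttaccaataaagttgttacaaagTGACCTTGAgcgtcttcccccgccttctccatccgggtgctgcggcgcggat
Uqcr11: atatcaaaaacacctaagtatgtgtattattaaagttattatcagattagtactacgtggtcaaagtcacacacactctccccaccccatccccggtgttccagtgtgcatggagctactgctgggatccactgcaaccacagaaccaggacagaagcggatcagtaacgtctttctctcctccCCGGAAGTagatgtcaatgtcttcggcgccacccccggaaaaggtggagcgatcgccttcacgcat

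The marked motif of *Cycs* began 61 bases before the start, that of *Atp5g3* 52 bases and that of *Uqcr11* 66 bases before it. Members with an NRF1 core were *Atp5g2*, *Atp5j*, *Atp5k*, *Atp5l*, *Cox6a1*, *Cycs*, *Uqcr11* and *Uqcrc1*. Their log2 fold changes ran from −0.07 for *Cox6a1* to 0.20 for *Atp5j*, within the range of the other members.

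In complex II the 4 members differed little between groups. *Sdha*, the flavoprotein that oxidizes succinate, stood at 1850, 1727 and 1825 CPM with vehicle and at 1908, 1826 and 1766 CPM with Tributyrin. Its values were mixed between the groups, with a log2 fold change of 0.03 (SE 0.07). *Sdhb*, the iron-sulfur subunit, stood at 760 ± 33.9 CPM (SD, n = 3) with vehicle and 799 ± 54.9 CPM with Tributyrin (log2 fold change 0.07). The membrane anchors *Sdhc* and *Sdhd* had fold changes of 0.12 and 0.10 on the log2 scale. *Sdhc* was at 593, 577 and 582 CPM with vehicle and at 658, 578 and 664 CPM with Tributyrin, so that replicate 2 lay among the vehicle hearts. *Sdhd* was at 461, 424 and 438 CPM with vehicle and at 501, 397 and 515 CPM with Tributyrin, with replicate 2 the lowest of the 6.

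In complex III all 9 members had a fold change above 0 and none an unadjusted p under 0.05. The subunits with catalytic centres and the core proteins lay near 0. On the log2 scale the fold change was 0.04 for *Uqcrfs1*, the Rieske iron-sulfur protein, 0.05 for *Cyc1*, which encodes cytochrome c1, 0.04 for *Uqcrc1* and 0.08 for *Uqcrc2*, the core proteins. The small subunits without a redox centre stood higher, with a median of 0.13 over *Uqcrb*, *Uqcrq*, *Uqcrh*, *Uqcr10* and *Uqcr11*. *Uqcrb* was at 289, 269 and 271 CPM with vehicle and 315, 273 and 346 CPM with Tributyrin (log2 fold change 0.17, SE 0.09, unadjusted p = 0.0836 in edgeR). *Uqcr10* was at 316, 270 and 288 CPM with vehicle and 333, 267 and 371 CPM with Tributyrin (log2 fold change 0.15, SE 0.11). In both genes Tributyrin replicates 1 and 3 were the 2 highest hearts, and replicate 2 lay within or below the vehicle range. The difference between these classes of subunit was not tested. The small subunits have principal transcripts of 405 to 547 bases and the other 4 members of 1363 to 1896 bases.

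Cytochrome c is the small soluble carrier between complexes III and IV. *Cycs* was at 242, 220 and 224 CPM with vehicle and at 280, 220 and 286 CPM with Tributyrin. Tributyrin replicates 1 and 3 were above every vehicle heart and replicate 2 was level with the lowest. The log2 fold change was 0.19 (SE 0.10, unadjusted p = 0.082 in edgeR), or a mean 14.4% higher, and it was 0.31 without Tributyrin replicate 2. The gene lies at chr6:50562563-50566538 (GRCm38, minus strand).

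In complex IV 16 of 18 members were tested and 14 had a fold change above 0. *Cox6a2*, the heart and skeletal muscle isoform of subunit VIa, lies at chr7:128205435-128206387 (GRCm38, minus strand). It stood at 1150, 1122 and 1165 CPM with vehicle and at 1284, 1225 and 1405 CPM with Tributyrin, so that every Tributyrin heart lay above every vehicle heart. The mean was 13.9% higher and the log2 fold change 0.19 (SE 0.07), with an unadjusted p of 0.0268 and an adjusted p of 0.999 in edgeR. *Cox7a2*, the general isoform of subunit VIIa, lies at chr9:79755361-79759878 (minus strand). It stood at 243, 237 and 237 CPM with vehicle and at 270, 251 and 298 CPM with Tributyrin, again without overlap (log2 fold change 0.19, SE 0.08, unadjusted p = 0.0316 and adjusted p = 0.999 in edgeR). Neither gene shares a stretch of 50 bases with another gene, and *Itgad*, which overlaps *Cox6a2* over 70 bases on the opposite strand, had 25 reads over the 6 libraries. Of the skeletal muscle markers, *Tnni2* and *Mybpc2* passed the filter, and the 6 markers summed to 22.6 to 32.2 CPM with vehicle and 8.51 to 22.1 CPM with Tributyrin, while *Myh1* and *Myh4* were at most 0.0884 CPM. *Mybpc2* was lower with Tributyrin (log2 fold change −1.03, unadjusted p = 0.00698 in edgeR) and *Tnni2* higher (0.51, unadjusted p = 0.0824 in edgeR). The part of other muscle in the *Cox6a2* values was not tested.

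*Cox6c* and *Cox7b* are small subunits of complex IV. *Cox6c* was at 492, 429 and 441 CPM with vehicle and at 554, 445 and 566 CPM with Tributyrin (log2 fold change 0.20, SE 0.10). *Cox7b* was at 602, 494 and 547 CPM with vehicle and at 646, 531 and 694 CPM with Tributyrin (log2 fold change 0.19, SE 0.11). In both, the groups overlapped through Tributyrin replicate 2. *Cox4i1*, the largest nuclear subunit, and *Cox5a*, its neighbour in the complex, had log2 fold changes of 0.11 and 0.13. *Cox5b*, which holds a zinc ion, was at 0.08, *Cox6b1* at 0.10, *Cox7c* at 0.11 and *Cox7a2l* at 0.04. *Cox6b2* had the widest value, 0.59 (SE 0.30), on 0.593, 0.884 and 1.04 CPM with vehicle and 0.997, 1.36 and 1.44 CPM with Tributyrin, which overlap. Tributyrin replicate 2 was above every vehicle heart in this gene.

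The members below 0 were both minor isoforms. *Cox4i2*, an isoform of subunit IV known from lung, was at 8.42, 6.98 and 7.996 CPM with vehicle and at 6.48, 6.80 and 8.10 CPM with Tributyrin (log2 fold change −0.13, SE 0.13). *Cox6a1*, the general isoform of subunit VIa, was at 64.7, 59.4 and 59.5 CPM with vehicle and at 55.7, 55.1 and 64.3 CPM with Tributyrin (log2 fold change −0.07, SE 0.08). The groups overlapped in both, and neither fold change exceeded its standard error.

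In complex V all 17 tested members had a fold change above 0, from 0.06 for *Atp5g1* to 0.23 for *Atp5e*. In the F1 head, where ATP is made, the alpha and beta subunits *Atp5a1* and *Atp5b* were near the low end at 0.07 and 0.09. *Atp5b* was at 5635, 5335 and 5381 CPM with vehicle and 5977, 5477 and 5950 CPM with Tributyrin. In the central stalk *Atp5c1* (gamma) stood at 0.16, *Atp5d* (delta) at 0.08 and *Atp5e* (epsilon) at 0.23. *Atp5e* was at 346, 308 and 301 CPM with vehicle and at 384, 316 and 419 CPM with Tributyrin (SE 0.10, unadjusted p = 0.052 in edgeR), with replicate 2 inside the vehicle range.

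The peripheral stalk, which holds the head still against the rotor, had a median log2 fold change of 0.14 over *Atp5f1*, *Atp5h*, *Atp5j* and *Atp5o*. *Atp5j*, which encodes coupling factor 6, lies at chr16:84827866-84835625 (minus strand). It was at 494, 466 and 476 CPM with vehicle and at 570, 491 and 590 CPM with Tributyrin. Tributyrin replicates 1 and 3 were above every vehicle heart, and replicate 2 lay just under the highest vehicle heart. The log2 fold change was 0.20 (SE 0.08, unadjusted p = 0.0305 and adjusted p = 0.999 in edgeR). *Gabpa*, which overlaps it on the opposite strand, had 1299, 1652 and 1101 reads with vehicle and 1528, 1546 and 1122 reads with Tributyrin. Among the other membrane subunits *Atp5j2*, *Atp5k*, *Atp5l* and *Atp5mpl* the median was 0.15, and for *Atp5l* the standard error was 0.30 on 38 to 78 reads. *Atp5s* stood at 0.12.

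The isoform shares described how heart-type and general subunits divided. A share is the percent of the summed level per exonic length held by an isoform. *Cox6a2* held 94.8%, 95.1% and 95.3% of subunit VIa transcripts with vehicle and 96.0%, 95.8% and 95.8% with Tributyrin, a difference of 0.768 percentage points with no overlap between groups. In a two-sided exact permutation test p was 0.1, the smallest that 3 hearts against 3 allow, and 0.6 after Benjamini-Hochberg adjustment over the 9 shares. *Cox7a1*, the heart isoform of subunit VIIa, held 76.8% ± 0.358 (SD, n = 3) with vehicle and 76.7% ± 0.935 with Tributyrin (exact permutation p = 1). *Cox8b*, the heart isoform of subunit VIII, held 89.2% ± 1.11 and 89.9% ± 0.408 (exact permutation p = 0.6). *Cox7a1* itself was at 454, 452 and 436 CPM with vehicle and at 509, 443 and 583 CPM with Tributyrin, and *Cox8b* at 444, 366 and 398 CPM and at 446, 387 and 485 CPM. *Cox8a*, the general partner of *Cox8b*, stood at 0.04 on the log2 scale, against 0.13 for *Cox8b*, with standard errors of 0.07 and 0.10. *Cox4i2* held 1.20% ± 0.0983 of subunit IV with vehicle and 1.02% ± 0.0867 with Tributyrin, *Cox6b2* 0.113% ± 0.0326 and 0.160% ± 0.0365 of subunit VIb (exact permutation p = 0.2 for each), and *Cox7b2* 0.0287% ± 0.0343 and 0.0318% ± 0.0216 of subunit VIIb (exact permutation p = 0.9). The size of the small shares depended on the length used. With no correction for length *Cox4i2* held 0.613% with vehicle and 0.522% with Tributyrin, and *Cox6b2* 0.177% and 0.250%. With the principal transcript, a length chosen after the data were seen, they held 0.628% and 0.535%, and 0.236% and 0.332%.

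**Figure D4:**
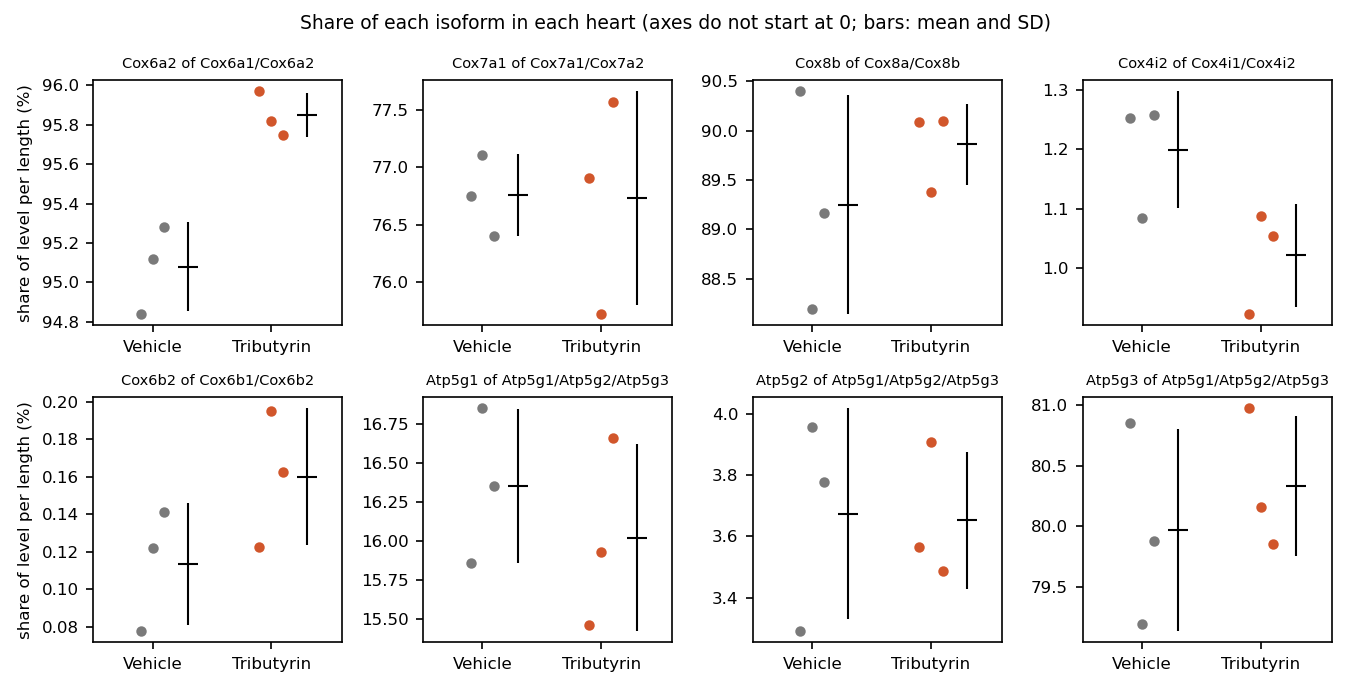
Share of an isoform in the summed level per exonic length of its family (percent, axes not starting at 0), with each point 1 heart and bars for the mean and SD of 3 hearts per group. The *Cox6a2* points of the 2 groups are apart (94.8% to 95.3% against 95.8% to 96.0%), and the others overlap.

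The c subunit forms the rotating ring of ATP synthase and has 3 genes, whose coding sequences show whether reads of 50 bases can tell them apart. *Atp5g1*, *Atp5g2* and *Atp5g3* encode the same mature protein behind different import signals. The last 228 bases of each coding sequence (GENCODE M21, principal transcripts), 76 codons with the stop, are given with capitals where the 3 genes differ.
Atp5g1: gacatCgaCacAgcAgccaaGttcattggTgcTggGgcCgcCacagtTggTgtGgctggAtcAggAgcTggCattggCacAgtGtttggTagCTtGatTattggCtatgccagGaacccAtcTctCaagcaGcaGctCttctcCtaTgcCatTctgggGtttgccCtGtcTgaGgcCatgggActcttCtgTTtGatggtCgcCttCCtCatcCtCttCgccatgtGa
Atp5g2: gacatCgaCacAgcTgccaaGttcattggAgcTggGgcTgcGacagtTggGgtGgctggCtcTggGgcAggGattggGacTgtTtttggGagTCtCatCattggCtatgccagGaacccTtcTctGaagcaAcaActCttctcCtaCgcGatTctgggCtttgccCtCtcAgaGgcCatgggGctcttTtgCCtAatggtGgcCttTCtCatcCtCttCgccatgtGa
Atp5g3: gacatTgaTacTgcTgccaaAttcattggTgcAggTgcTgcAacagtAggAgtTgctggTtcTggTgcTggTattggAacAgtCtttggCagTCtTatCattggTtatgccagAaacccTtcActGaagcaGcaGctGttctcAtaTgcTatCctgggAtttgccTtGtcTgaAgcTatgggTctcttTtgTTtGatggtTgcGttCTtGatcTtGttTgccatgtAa

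Of these bases 58 differed between any of the genes, 52 of them at the third place of a codon. *Atp5g1* and *Atp5g2* had 85.1% of bases in common and *Atp5g2* and *Atp5g3* 78.5%, and the longest run shared by any pair was 21 bases, shorter than a read. *Atp5g3* held 80.0% ± 0.831 (SD, n = 3) of the c subunit transcripts with vehicle and 80.3% ± 0.575 with Tributyrin, *Atp5g1* 16.3% ± 0.494 and 16.02% ± 0.601, and *Atp5g2* 3.67% ± 0.344 and 3.65% ± 0.223. The exact permutation p was 0.6, 0.5 and 0.9. With the length of the principal transcript in place of all exons, chosen after the data were seen, the vehicle shares became 62.2%, 34.3% and 3.55%. *Atp5g1* and *Atp5g2* share sequence with pseudogenes as given above, so the division between them and *Atp5g3*, which shares none, is uncertain.

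The mitochondrially encoded partners were measured in the same libraries. *mt-Cytb*, the cytochrome b of complex III, was at 43470, 36600 and 37440 CPM with vehicle and at 47490, 42800 and 51230 CPM with Tributyrin, which overlap in replicate 2. The log2 fold change was 0.27 (SE 0.10, unadjusted p = 0.0198 and adjusted p = 0.999 in edgeR). *mt-Co1*, the catalytic subunit of complex IV, was at 90810, 75980 and 78130 CPM with vehicle and at 97270, 85280 and 107000 CPM with Tributyrin (log2 fold change 0.24, SE 0.11, unadjusted p = 0.045 and adjusted p = 0.999 in edgeR). Both had higher means with Tributyrin, and both were lower in Tributyrin replicate 2 than in vehicle replicate 1. *mt-Co2*, *mt-Atp6* and *mt-Atp8* had 0 reads in every library and *mt-Co3* 0 to 2. Of the stretches of 50 bases in these genes, 100% of *mt-Co2*, 99.9% of *mt-Co3*, 99.5% of *mt-Atp6* and 51.1% of *mt-Co1* also occur in transcripts of other annotated genes, and 0% of *mt-Atp8* and of *mt-Cytb*. The levels of *mt-Co2*, *mt-Co3*, *mt-Atp6* and *mt-Atp8* were not measurable here, that of *mt-Co1* and each ratio to it are uncertain, and complex V had no mitochondrially encoded partner to compare with.

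The ratio of nuclear to mitochondrially encoded subunits was therefore set by *mt-Cytb* and *mt-Co1*. For complexes III to V together, summed per exonic length, it was 0.182, 0.204 and 0.202 with vehicle and 0.179, 0.179 and 0.176 with Tributyrin. The nuclear members of complex V enter this sum without a measured mitochondrially encoded partner, so it is not a ratio within matched complexes. Per length of the principal transcript, chosen after the data were seen, it was 0.331, 0.374 and 0.367 with vehicle and 0.328, 0.326 and 0.322 with Tributyrin. The nuclear members of complex III over *mt-Cytb* gave 0.105, 0.116 and 0.115 with vehicle and 0.1001, 0.0955 and 0.102 with Tributyrin. The nuclear members of complex IV over *mt-Co1* gave 0.123, 0.138 and 0.137 with vehicle and 0.123, 0.126 and 0.123 with Tributyrin. For complexes III to V, with either length, the ratio was lower in every Tributyrin heart than in every vehicle heart. The same held for complex III over *mt-Cytb*, and the groups overlapped for complex IV over *mt-Co1*. Vehicle replicate 1, which had the highest mitochondrial share among the vehicle hearts, lay closest to the Tributyrin hearts in each of these ratios. No test was made on this ratio.

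**Figure D5:**
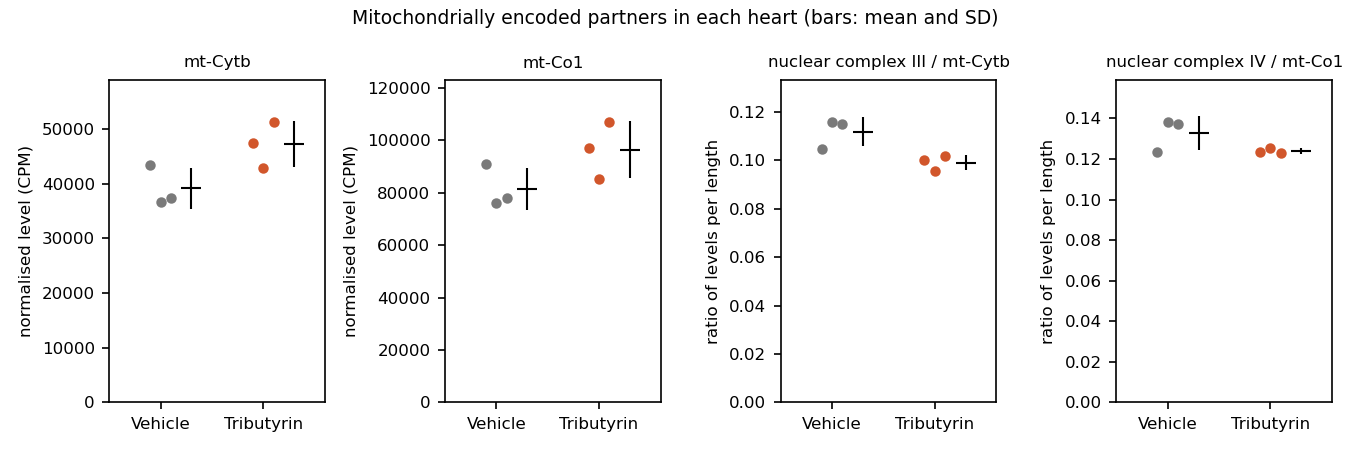
Normalised level of *mt-Cytb* and *mt-Co1* (CPM) and the ratio of the summed nuclear members of complexes III and IV to them (levels per exonic length), with each point 1 heart and bars for the mean and SD of 3 hearts per group. The ratio for complex III is 0.105 to 0.116 with vehicle and 0.0955 to 0.102 with Tributyrin.

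Genes outside the member rule, listed as assembly factors and regulators of these complexes, were examined beside the members. The list is not free of subunits and carriers. It includes *Usmg5* (log2 fold change 0.18) and *Ndufa4*, which are counted as subunits by many, and *Cyct*, the testis form of cytochrome c. Of 45 symbols listed, 39 were tested, and 29 of these had a log2 fold change above 0 and 10 below, with a median of 0.04, beside 0.12 for the members. The difference was not tested, and none of the 39 passed an FDR of 10%. *Cox19*, which helps to deliver copper to complex IV, was the 1 gene with an unadjusted p under 0.05, and it was lower with Tributyrin, as were 2.28% of all genes at that level. It stood at 39.5, 44.8 and 41.3 CPM with vehicle and at 32.4, 34.7 and 40.3 CPM with Tributyrin, which overlap (log2 fold change −0.23, SE 0.10, unadjusted p = 0.0356 and adjusted p = 0.999 in edgeR). *Coa5*, another complex IV assembly factor, named for being the 1 gene of the list whose groups did not overlap, was at 224, 241 and 224 CPM with vehicle and at 220, 207 and 212 CPM with Tributyrin (log2 fold change −0.11, SE 0.07), a separation seen in that direction for 4.61% of all genes. *Ndufa4*, now counted by many as a subunit of complex IV, was at 0.10 on the log2 scale, close to the other members of that complex.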

How the data were processed

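Stranded mRNA libraries of single-end reads from 6 hearts were analysed. The authors trimmed adapters with cutadapt 1.13, removed poor and rRNA reads, aligned to mm10 with STAR and counted reads per gene with HTSeq 0.6.1p1. The deposited values are these whole-number counts without normalization, and 54165 of 54232 identifiers matched GENCODE M21 (GRCm38). Here, library sizes were scaled by TMM, genes were filtered with filterByExpr (minimum count 10, minimum total 15), and all 14133 genes left were fitted in edgeR 4.0.16 (quasi-likelihood, Benjamini-Hochberg). DESeq2 1.42.0, limma 3.58.1 (voom), other scalings and filters, a replicate block and leaving out each heart were alternatives. Log2 levels per heart used 0.1 CPM added to each value. The steps were tested on simulated data. Depth was 20369746 to 32734485 counts per library, which limits precision mainly for *Atp5l*, *Cox6b2* and *Cox7b2*.

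Members and lists were chosen with earlier results of these data known, so no list was tested as a whole. Named were all members of complex II and cytochrome c, in the other complexes those with the 2 largest and 2 smallest fold changes and the 2 highest and 2 lowest levels, all isoforms and untested members, those with an unadjusted p under 0.05, and mitochondrially encoded partners. Members named beyond that, and *Coa5*, *Ndufa4* and *Usmg5*, were chosen after their values were seen. Replicate numbers name separate samples in the labels, and p-values measure the spread between these samples. Dmac2l, a later symbol for the member *Atp5s*, is not a symbol in GENCODE M21 and was left unmatched in the list of assembly factors and regulators. *Cyct*, *Sco2*, *Cox20*, *Pet117* and *Slirp* were below the filter.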

Additional observations from a re-analysis of the deposited data

How the results depend on the processing

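Depth was not what limited most members, though *Atp5l*, *Cox6b2* and *Cox7b2* had few. Over all genes, 0 passed an FDR of 10%, against 11 with DESeq2, 167 without the filter on low counts, 2 with the replicate block, and 0 to 3 with each heart left out. No member passed 10% under any alternative, and the lowest adjusted p of a member was 0.345. The 3 members with an unadjusted p under 0.05 became 0 with library size alone, 11 without the filter, 7 with the replicate block and 0 to 31 with a heart left out. Over all genes the share in either direction was 5.65% with library size alone, 4.6% without the filter and 5.17% with the replicate block. With a heart left out it was 2.68% to 9.56%. The deviations of same-numbered hearts correlated at 0.21, 0.04 and 0.01. Hearts of different numbers were not compared in this way, so the values do not decide whether the numbers pair the hearts. Every other alternative kept the count of members with an unadjusted p under 0.05 within 1.5 times. The 2 members without overlap became 4 with library size alone, where 11.5% of all genes were separated in either direction. Of these, 2 had Tributyrin above and 2 had vehicle above, beside 1.76% and 9.73% of all genes. With a heart left out the number was 3 to 39, where 15.4% to 27.2% of all genes were separated in either direction. Without Tributyrin replicate 3 it was 2 with Tributyrin above and 2 with vehicle above, beside 9.32% and 9.03% of all genes. In every other such run Tributyrin was above. In the list of assembly factors and regulators the 1 gene with an unadjusted p under 0.05 became 2 with library size alone, 4 without the filter and 0 to 6 with a heart left out. The shares over all genes at that level are those given above.

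The median log2 fold change over members stayed above 0 in every alternative run. With a heart left out it ran from 0.05 to 0.19 over all members, 0.04 to 0.15 in complex II, 0.03 to 0.22 in complex III, 0.13 to 0.31 for *Cycs*, 0.05 to 0.19 in complex IV and 0.08 to 0.21 in complex V, and 38 to 45 members were above 0. The log2 ratio of nuclear to mitochondrially encoded subunits (Tributyrin minus vehicle) was −0.19 to −0.10. The differences in isoform share were 0.647 to 0.867 percentage points for *Cox6a2*, −0.438 to 0.487 for *Cox7a1*, 0.0767 to 1.18 for *Cox8b*, −0.234 to −0.128 for *Cox4i2*, 0.0286 to 0.0654 for *Cox6b2*, −0.0112 to 0.0222 for *Cox7b2*, −0.658 to −0.0583 for *Atp5g1*, −0.213 to 0.119 for *Atp5g2* and −0.035 to 0.790 for *Atp5g3*.

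With library size alone the log2 fold change turned below 0 for 9 members, *Cyc1*, *Cox7a2l* and, of the genes named by the rule, *Sdha* (−0.0456), *Sdhb* (−0.0022), *Uqcrc1* (−0.0326), *Uqcrfs1* (−0.0383), *Cox8a* (−0.0367), *Atp5a1* (−0.0030) and *Atp5g1* (−0.0141). Without Tributyrin replicate 3 it turned for 7 members, *Cyc1*, *Cox5b*, *Cox7a2l* and *Atp5j2* among them, without vehicle replicate 2 for 2 and without Tributyrin replicate 1 for 1. Of the genes named by the rule it crossed 0 with a heart left out for *Sdha* (−0.0033 to 0.0549), *Uqcrfs1* (−0.0251 to 0.117), *Cox8a* (−0.0169 to 0.0882), *Atp5g1* (−0.0221 to 0.131) and *Atp5l* (−0.18 to 0.38). Without the filter *mt-Cytb* and *mt-Co1* passed 10% (adjusted p = 0.0391 and 0.0976 in edgeR). Of 500 values of the 36 named genes tested, 485 kept their sign and their side of the threshold, and the cause of the other changes was not tested.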
